A study of Mus musculus with 10 samples.

Results

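The genes described here encode, by their names, the proteins of the cytosolic ribosome (symbols beginning Rpl or Rps and a number) and of the mitochondrial ribosome (Mrpl or Mrps and a number). A feature of the array entered when it was annotated to exactly 1 such symbol, ribosomal protein S6 kinases and numbered pseudogene symbols were left out, and the feature with the highest mean over the samples stood for its gene. This gave 88 genes of 14860 with a feature of their own symbol, 20 in the cytosolic name class and 68 in the mitochondrial one. The signals came from whole-transcript Affymetrix arrays of 10 mouse thymi, and values below are deposited log2 signals. The mice were 4 to 5 weeks old, on a hybrid C57BL6/129 background, and every thymus was labelled normal. No group carried wild-type p53. Of the p53-null thymi, written p53(-/-) in the labels, 3 had wild-type mdm2 and 2 lacked mdm2. Of the thymi homozygous for the mutant p53 allele 246, 3 had wild-type mdm2 and 2 lacked mdm2. The labels name no Cre driver or transgene.

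The ribosome translates messenger RNA, and its large and small subunits each combine ribosomal RNA with many proteins. Cytosolic ribosomal proteins are made in near-equal amounts, and several that are left unassembled when ribosome production fails bind Mdm2, the ubiquitin ligase that marks p53 for destruction. The mitochondrial ribosome has its own nuclear-encoded proteins and translates the few messages of mitochondrial DNA, all of them for the respiratory chain and ATP synthase. Proliferating thymocytes need both machines for growth.

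The cytosolic class covered its ribosome thinly, and the mitochondrial class covered it more fully. Its 20 genes held 14 core subunits, 5 paralogs (Rpl7l1, Rpl3l, Rpl39l, Rps27l and Rps4l) and Rps19bp1, which binds a ribosomal protein and is not a subunit. Another 24 cytosolic symbols were annotated only to features shared with other symbols and are no members, among them Rpl5, Rpl26, Rps7, Rps14 and Rps19. The mitochondrial class held 43 large-subunit and 25 small-subunit names. One of the latter, Mrps36, has since been assigned to the 2-oxoglutarate dehydrogenase complex. The split into subunits follows the names, and whether each other protein sits in the subunit of its name was not checked.

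Promoter sequences are shown for 6 genes described in the genotype comparisons below, 3 from each class. Each line gives the 120 bases before the annotated start, 5′ to 3′ on the gene's strand, from RefSeq on GRCm38.p6, with capitals marking motif matches within the printed bases. The windows lie at chr11:97782440-97782559 on the minus strand for Rpl23, and on the plus strand at chr9:64173267-64173386 for Rpl4, chr15:5116493-5116612 for Rpl37, chr11:120484517-120484636 for Mrpl12, chr4:155802758-155802877 for Mrpl20 and chr2:130563637-130563756 for Mrps26. 
Rpl23: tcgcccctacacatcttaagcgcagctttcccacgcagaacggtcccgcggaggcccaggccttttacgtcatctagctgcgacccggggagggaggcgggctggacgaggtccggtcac
Rpl4: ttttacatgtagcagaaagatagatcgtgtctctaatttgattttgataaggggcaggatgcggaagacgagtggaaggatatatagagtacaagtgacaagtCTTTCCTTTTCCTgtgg
Rpl37: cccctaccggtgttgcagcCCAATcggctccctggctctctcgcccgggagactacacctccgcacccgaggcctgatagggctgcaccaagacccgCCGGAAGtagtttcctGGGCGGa
Mrpl12: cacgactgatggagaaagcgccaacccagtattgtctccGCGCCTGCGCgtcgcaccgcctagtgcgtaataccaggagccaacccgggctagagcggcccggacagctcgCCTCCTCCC
Mrpl20: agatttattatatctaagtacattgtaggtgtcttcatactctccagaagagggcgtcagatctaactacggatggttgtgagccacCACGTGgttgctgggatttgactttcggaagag
Mrps26: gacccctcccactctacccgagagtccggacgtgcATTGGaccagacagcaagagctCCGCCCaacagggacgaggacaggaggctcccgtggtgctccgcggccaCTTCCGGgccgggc
The capitals are a CCAAT box (CCAAT), an ETS core (CCGGAAG) and an Sp1 site (GGGCGG) in Rpl37, an NRF-1 site (GCGCA, any base, then GCGC) and a pyrimidine run in Mrpl12, a pyrimidine run in Rpl4, an E-box (CACGTG) in Mrpl20, and a CCAAT box, an Sp1 site and an ETS core in Mrps26. A pyrimidine run is here a C followed by 6 or more C or T on the sense strand, within 30 bases of the start. The printed bases of Rpl23 held none of the motifs searched. A match describes letters in a window and was not tested as a binding site.

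Motif shares were counted on both strands from 250 bases before to 50 bases after the start, for the 76 members with a RefSeq window and for all 27025 genes that have one. The ETS core was present in 33.9% of the 59 mitochondrial windows, in 25% of the 12 windows of cytosolic core subunits and in 9.93% of all windows. The NRF-1 site, named for a regulator of nuclear genes for mitochondria, was present in 18.6%, 16.7% and 5.19% in the same order, and the YY1 core (AAGATGGC) in 18.6%, 16.7% and 3.19%. The classes therefore held similar shares of these 3 motifs, with few windows on the cytosolic side. The CCAAT box stood at 40.7% in the mitochondrial windows and 41.7% in the cytosolic core subunits, beside 41.1% of all windows, and the E-box at 8.47% and 8.33% beside 8.09%. The pyrimidine run, which resembles the 5′ tract that places ribosomal protein messages under mTOR control, was present in 9 of the 12 cytosolic core subunits (75.0%), in 18 of the 59 mitochondrial windows (30.5%) and in 31.9% of all windows. The Sp1 site was in 47.5% of mitochondrial windows, 50% of those of cytosolic core subunits and 38.2% of all windows. The TATA box, letters TATAAA, was in 8.47%, 8.33% and 15.7% in the same order.

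**Figure D1:**
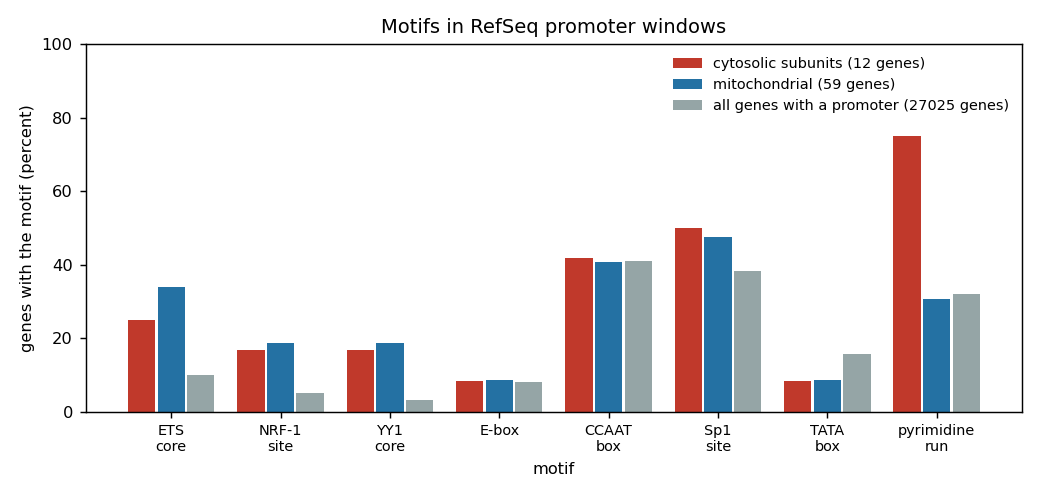
Percent of RefSeq promoter windows with each motif (y axis, 0 to 100), for cytosolic core subunits, mitochondrial members and all genes with a window. The pyrimidine run is the motif in which the cytosolic core subunits (75.0%) and the mitochondrial members (30.5%) lie farthest apart.

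The samples also differed in other genes and in their array names, and whether this bore on the members was not tested. Mdm2 signal was 9.47 to 9.62 in the 6 samples with wild-type mdm2 and 8.28 to 8.43 in the 4 mdm2-null samples, a difference of -1.19 (SE 0.07, adjusted p = 9.24e-05). Of the 7 thymocyte markers measured, Cd3e (11.05 to 11.34), Cd4 (10.74 to 11.36) and Cd8a (12.44 to 12.80) were high in all 10 samples. The differences of the whole list are given with the mdm2 comparison below. The array names fall into 3 sets, and 0 of them hold both mdm2 genotypes, so a difference between array sets and an mdm2 difference cannot be told apart. The same holds for p53 genotype among the mdm2-null samples. Replicate 1 of the p53-null mdm2-wild-type group stood apart from the other 9 samples in the Y-linked genes Kdm5d (3.73 against 7.27 to 8.31) and Eif2s3y (3.46 against 9.72 to 10.50).

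Across samples the averages of the 2 classes moved together, while co-movement of single members within a class was not tested. The mean deviation of a class is the average, over its genes, of the signal minus that gene's own mean over the 10 samples. For the cytosolic class it was -0.13, -0.11 and 0.04 in the p53-null mdm2-wild-type samples, -0.01, 0.09 and -0.06 in the mutant p53 mdm2-wild-type samples, -0.22 and 0.12 in the p53-null mdm2-null samples, and 0.10 and 0.18 in the mutant p53 mdm2-null samples. For the mitochondrial class the values were, in the same order, -0.16, -0.15 and 0.09, then 0.05, 0.13 and -0.12, then -0.21 and 0.19, then 0.09 and 0.09. In the mitochondrial class every group overlapped another, and the lowest and highest samples were both p53-null mdm2-null thymi. In the cytosolic class the mutant p53 mdm2-null samples lay above all 6 mdm2-wild-type samples, at the closest by 0.103 against 0.094. The lowest sample was again a p53-null mdm2-null thymus. Over the 14 core subunits alone that separation was absent. Replicate 1 of the mutant p53 mdm2-null group was then at 0.02, below mdm2-wild-type samples at 0.08, 0.07 and 0.05. Each class spanned 0.40 on the log2 scale from its lowest to its highest sample. The classes lay on the same side of 0 in 9 of the 10 samples, and the cytosolic value minus the mitochondrial value ran from -0.07 to 0.09. Samples and array depth are shared by the 2 classes, so their joint movement is a description.

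**Figure D2:**
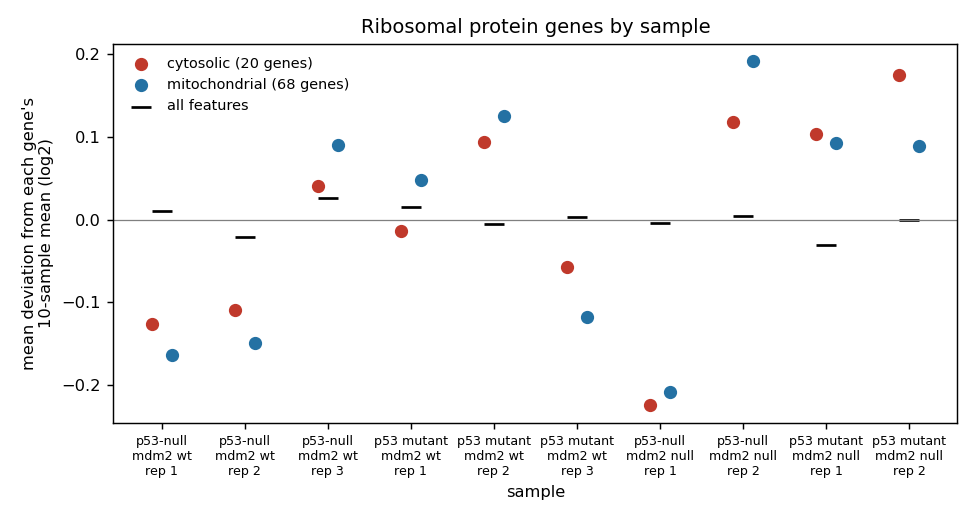
Mean log2 deviation of the cytosolic and mitochondrial classes in each of the 10 samples (y axis), ordered by genotype group (x axis). The p53-null mdm2-null replicates sit at -0.22 and 0.12 for the cytosolic class and at -0.21 and 0.19 for the mitochondrial class.

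Counts of genes showed the same samples. Of the 88 members, 17, 20 and 58 were above their own mean in the 3 p53-null mdm2-wild-type samples, 48, 70 and 23 in the mutant p53 mdm2-wild-type samples, 16 and 68 in the p53-null mdm2-null samples, and 64 and 57 in the mutant p53 mdm2-null samples. Over all features the share above its own mean ran from 44.4% to 52.7%. Replicate 1 of the p53-null mdm2-null group was the lowest sample for 30 of the 88 members and for 9.10% of all features, and replicate 2 was the highest for 27 members and for 11.6% of all features. Group means of the class deviation were -0.07 ± 0.09 (SD, n = 3), 0.01 ± 0.08 (n = 3), -0.05 ± 0.24 (n = 2) and 0.14 ± 0.05 (n = 2) for the cytosolic class, in the group order above. They were -0.07 ± 0.14, 0.02 ± 0.12, -0.01 ± 0.28 and 0.09 ± 0.0033 for the mitochondrial class.

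The spread of a gene over the 10 samples differed among the members. The median SD was 0.31 for cytosolic genes, 0.20 for mitochondrial genes and 0.22 for all features. Probes differ in response, so signal levels were not compared between genes. Rps9, a small-subunit core protein, read 12.74, 12.92 and 12.87 in the p53-null mdm2-wild-type samples, 12.92, 12.97 and 12.88 in the mutant p53 mdm2-wild-type samples, 12.71 and 12.94 in the p53-null mdm2-null samples and 12.90 and 12.85 in the mutant p53 mdm2-null samples. Its SD of 0.08 was the smallest of the cytosolic class, with Rpl31 (0.14) and Rpl8 (0.16) next. The features of Rps9 and Rpl31 lie at the ends of the signal scale, at percentiles 99.9 and 2.88 of all features by mean, and whether saturation or background sets their SD was not tested. Mrps2 (0.09), Mrpl10 (0.09) and Mrpl9 (0.10) had the smallest SDs of the mitochondrial genes. At the other end stood Rps24 (0.57), Rpl35a (0.52), Rpl4 (0.45), Rps3 (0.44) and Rps18 (0.42), and Mrpl22 (0.49), Mrps12 (0.46), Mrps10 (0.46), Mrps36 (0.41) and Mrps26 (0.41). Rps24 lay at percentile 17.4 of all features by mean. It was 1 of 4 cytosolic genes in the lowest 25% of features, where 0 mitochondrial genes lay. Whether background sets the spread of these dim features was not tested. Mrps12 encodes a decoding-centre protein of the mitochondrial small subunit and read 8.85, 8.71 and 9.13, then 8.98, 8.85 and 8.45, then 7.73 and 9.27, then 9.30 and 8.89 in the same group order. Its lowest and second-highest samples were thus the replicates of the p53-null mdm2-null group. The features of Rpl31 and Rps24 carry a limit of their annotation: the 3 named features on each side by feature number map to another chromosome than the gene, which was so for 2 of the 88 members.

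**Figure D3:**
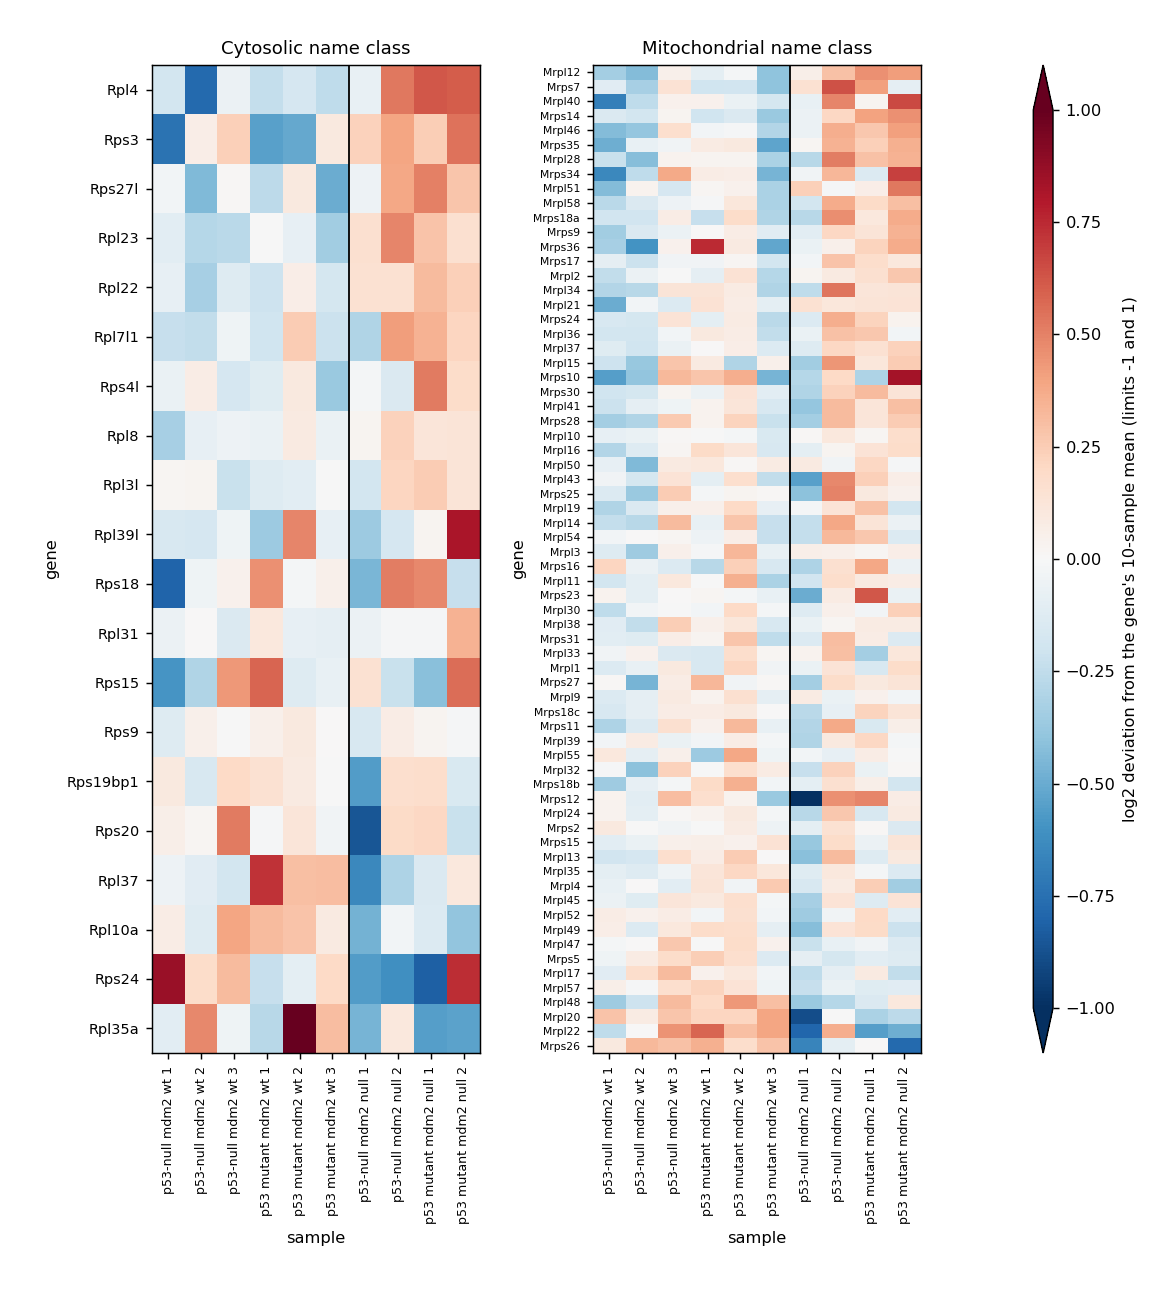
Log2 deviation of each of the 20 cytosolic and 68 mitochondrial genes (rows, ordered by mdm2 difference) from its own 10-sample mean in each sample (columns, mdm2-null samples right of the line). The colour scale is limited at -1 and 1, and replicate 1 of the p53-null mdm2-null group is the lowest sample for 30 of the 88 genes.

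The first comparison asked how the 4 mdm2-null thymi differed from the 6 with wild-type mdm2, over both p53 genotypes. Rpl23 and Rpl4, both large-subunit proteins of the cytosolic ribosome, rose without mdm2, by 1.37-fold and 1.62-fold. They were 2 of 20 cytosolic genes past an adjusted p of 0.05, and 0 of 68 mitochondrial genes passed (smallest adjusted p = 0.0504), beside 3.87% of all features in either direction and 1.96% higher. At an unadjusted p under 0.05, 6 cytosolic genes were higher and 3 lower, and 12 mitochondrial genes were higher and 5 lower, beside 21% of all features. The median log2 difference was 0.13 for the cytosolic class, 0.08 for the mitochondrial class and -0.02 for all features. Of the 20 cytosolic genes 13 had a difference above 0, as had 45 of the 68 mitochondrial genes and 46.2% of all features. For the 14 core subunits of the cytosolic class the median was 0.07, with 8 above 0. By subunit, the medians were 0.17 for large and 0.03 for small cytosolic names, and 0.06 for large and 0.10 for small mitochondrial names. For scale, the SD between samples of 1 group was 0.11 for the cytosolic and 0.14 for the mitochondrial sample median, and no test was made of a class median. Without replicate 1 of the p53-null mdm2-null group the medians were 0.23 and 0.13, without replicate 2 of it they were 0.12 and 0.013, and without replicate 3 of the mutant p53 mdm2-wild-type group they were 0.10 and 0.047. The mitochondrial median was 0.11 without replicate 2 of that last group.

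Markers of liver, and some of adipocytes, moved with this comparison. All 8 liver markers measured were called higher in mdm2-null samples, and the mean level of the list was 4.08 to 4.39 with wild-type mdm2, 6.52 and 9.48 in the p53-null mdm2-null samples and 7.77 and 9.32 in the mutant p53 mdm2-null samples. The 7 adipocyte markers, 3 of them called higher, averaged 5.16 to 6.27 with wild-type mdm2 and 5.90 to 7.70 without. The 4 erythroid markers averaged 3.96 to 4.29 and 4.20 to 5.85, and the 7 thymocyte markers 10.66 to 10.81 and 10.33 to 10.74, with 0 called in either list. All 7 thymocyte markers had a difference below 0 without mdm2, with a median of -0.14. They ran from -0.61 for Rag2 (limma adjusted p = 0.0528) and -0.39 for Cd3g (0.0606) to -0.0011 for Ptcra. The erythroid median difference was 1.29 in p53-null and 0.01 in mutant p53 thymi. Of the skeletal muscle, B cell and fibroblast markers 0 were called, with median differences of 0.16, -0.245 and 0.10. Whether any of these tissues or cell types had a part in the ribosomal protein differences was not tested. In whole-tissue RNA fewer cells of a type and less RNA per cell cannot be told apart.

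Rpl23, one of the proteins known to bind Mdm2, read 9.20, 9.02 and 9.04 in the p53-null and 9.30, 9.22 and 8.96 in the mutant p53 samples with wild-type mdm2, against 9.47 and 9.80 in the p53-null and 9.59 and 9.47 in the mutant p53 samples without mdm2. Every mdm2-null sample lay above every wild-type sample. The difference was 0.46 (SE 0.11, adjusted p = 0.0455, limma). Rpl4, which lines the peptide exit tunnel, read 8.95, 8.35 and 9.07, then 8.89, 8.96 and 8.87 with wild-type mdm2, and 9.05 and 9.65, then 9.75 and 9.73 without. The groups overlapped through replicate 1 of the p53-null mdm2-null group, and the difference was 0.70 (SE 0.16, adjusted p = 0.0472). Both calls lay close to the threshold. A plain linear model without moderation called neither (adjusted p = 0.0665 for Rpl23 and 0.089 for Rpl4). With the replicate number as a block, limma called neither as well. Leaving out any 1 of the 10 samples ended the Rpl23 call (adjusted p 0.0587 to 0.0951), and leaving out any but replicate 1 of the p53-null mdm2-null group ended that of Rpl4 (0.028 to 0.125). No member was called without replicate 2 of the mutant p53 mdm2-null group, without replicate 1 or 2 of the p53-null mdm2-wild-type group, or without any 1 of the mutant p53 mdm2-wild-type samples.

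Other cytosolic genes had differences in both directions that did not pass. Rpl22, a large-subunit protein needed for normal development of alpha-beta T cells in the mouse, read 10.56, 10.31 and 10.52, then 10.44, 10.71 and 10.47 with wild-type mdm2, and 10.80 and 10.80, then 10.96 and 10.88 without. The mdm2-null samples were all higher, and the difference was 0.36 (SE 0.09, adjusted p = 0.0531). Rps27l, a paralog of Rps27 and itself a known p53 target, was at 0.46 (SE 0.16, adjusted p = 0.123), and Rps3, at the messenger entry channel of the small subunit, was at 0.58 (adjusted p = 0.138), with overlapping groups in both. On the lower side stood the large-subunit proteins Rpl37, Rpl10a and Rpl35a. Rpl10a read 9.41, 9.21 and 9.73, then 9.65, 9.63 and 9.42 with wild-type mdm2, and 8.87 and 9.31, then 9.20 and 8.95 without, a difference of -0.43 (SE 0.13, adjusted p = 0.0978). Rpl37, which like Rpl23 is reported to bind Mdm2, differed by -0.41 (SE 0.11, adjusted p = 0.0763). Rpl35a differed by -0.60 (SE 0.26, adjusted p = 0.226), and the groups overlapped for Rpl37, Rpl10a and Rpl35a. Rpl23 and Rpl22 were the 2 cytosolic genes whose mdm2 groups did not overlap, beside 8.45% of all features.

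Among mitochondrial genes, Mrpl12, which forms the stalk of the large subunit and also binds the mitochondrial RNA polymerase, read 9.22, 9.13 and 9.62, then 9.47, 9.54 and 9.16 with wild-type mdm2, and 9.62 and 9.86, then 10.02 and 9.98 without. The mdm2-null samples were higher by a margin below the second decimal at the closest pair, and the difference was 0.52 (SE 0.12, adjusted p = 0.0504). Mrpl20, a large-subunit protein, read 9.10, 8.89 and 9.09, then 9.03, 9.03 and 9.21 with wild-type mdm2, and 7.93 and 8.81, then 8.50 and 8.55 without. All 4 mdm2-null samples were lower, with a difference of -0.61 (SE 0.15, adjusted p = 0.0549). Mrps26, of the small subunit, read 8.72, 8.95 and 8.92, then 8.98, 8.80 and 8.91, and without mdm2 7.97 and 8.53, then 8.63 and 7.85. It too was lower in all 4, by -0.63 (SE 0.16, adjusted p = 0.0584). The small-subunit genes Mrps14 at 0.42 (SE 0.12, adjusted p = 0.0788) and Mrps7 at 0.46 (SE 0.14, adjusted p = 0.0999) and the large-subunit gene Mrpl46 at 0.41 (adjusted p = 0.129) were on the higher side with overlapping groups. Mrpl57 at -0.22 (adjusted p = 0.162), with groups apart, and Mrpl22 at -0.61 (SE 0.24, adjusted p = 0.171) were on the lower side. In all, 1 mitochondrial gene was higher and 4 were lower without overlap, beside 8.45% of all features in either direction, a share close to that of the 68 genes.

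**Figure D4:**
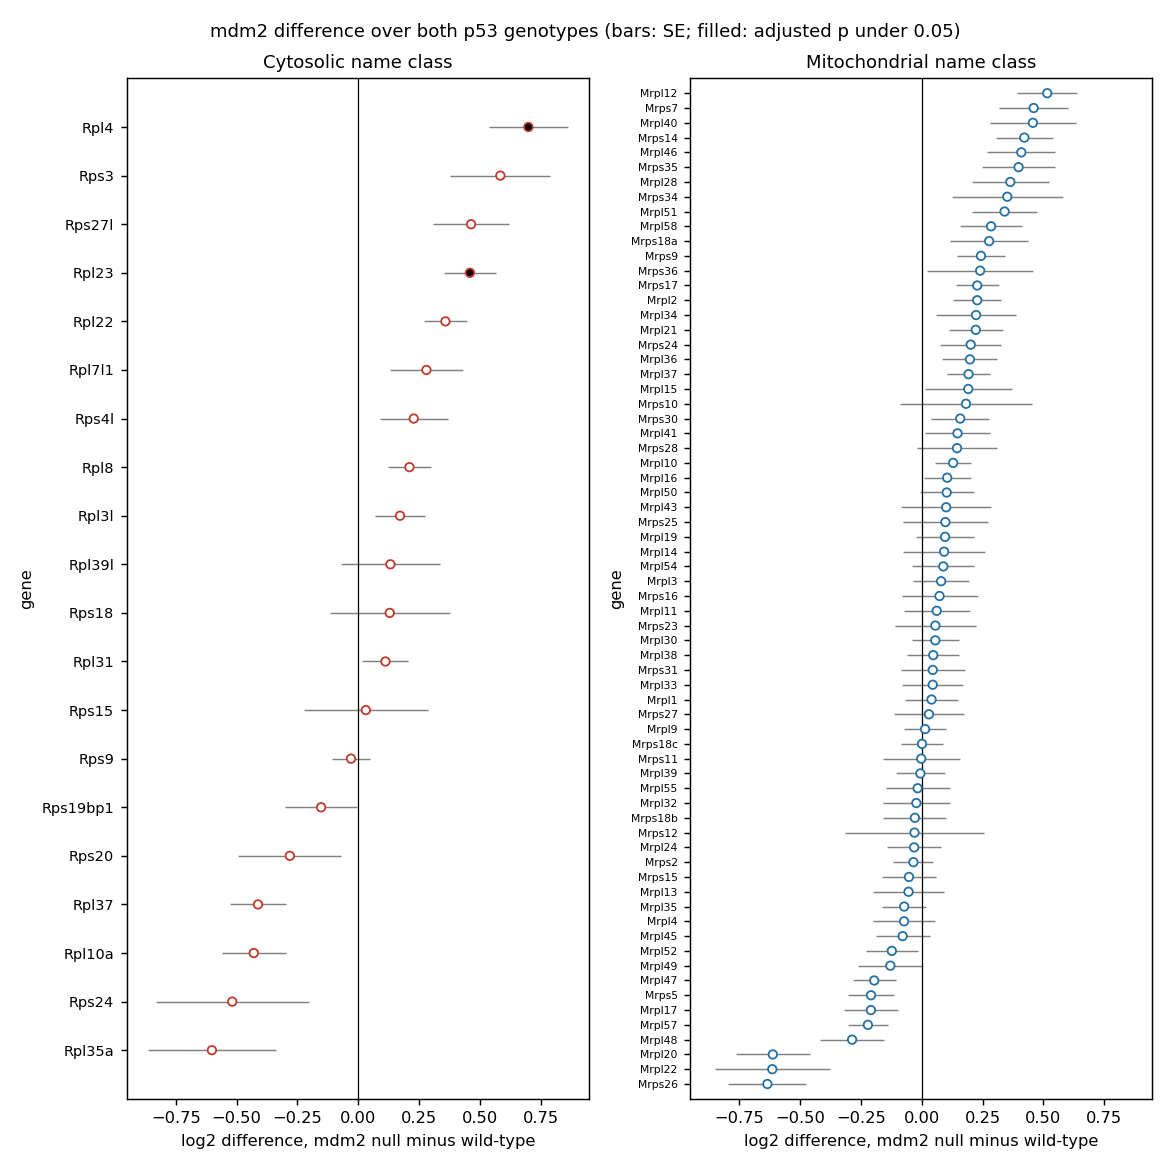
Log2 difference, mdm2-null minus wild-type, over both p53 genotypes (x axis) for the genes of both classes (rows), with SE bars and filled points for an adjusted p under 0.05. The filled points are Rpl23 at 0.46 and Rpl4 at 0.70, and class medians are 0.13 for cytosolic and 0.08 for mitochondrial genes.

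Taken within 1 p53 genotype, the mdm2 comparison called no member in limma or in a plain linear model. At an unadjusted p under 0.05 in limma, 4 cytosolic and 5 mitochondrial genes differed in p53-null thymi, beside 10.7% of all features, and 9 and 5 in mutant p53 thymi, beside 16.4%. In p53-null thymi 0.0214% of all features were called, and the class medians were 0.05 for cytosolic and 0.09 for mitochondrial genes. They depended on the pair of mdm2-null samples: without replicate 1 the mitochondrial median was 0.30, and without replicate 2 the medians were -0.13 and -0.10. Rpl23 had the smallest p there, with a difference of 0.55 (SE 0.15, adjusted p = 0.292). In mutant p53 thymi 0.0129% of all features were called, and the medians were 0.17 and 0.08. For the 14 cytosolic core subunits alone the median was -0.01 there, with 7 above 0. In p53-null thymi the core subunits had a median of 0.07, with 8 above 0. Without replicate 1 of the mutant p53 mdm2-null group the cytosolic median was 0.29, and without replicate 3 of the mutant p53 mdm2-wild-type group the mitochondrial median was 0.02. Mrps14 came nearest to the threshold, with 8.43, 8.49 and 8.26 with wild-type mdm2 and 9.03 and 9.09 without. Those groups did not overlap, and the difference was 0.67 (SE 0.13, adjusted p = 0.0915). Groups did not overlap for 6 cytosolic and 13 mitochondrial genes in p53-null thymi, beside 26% of all features, and for 11 and 23 in mutant p53 thymi, beside 36.1%.

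The second comparison set the 5 mutant p53 thymi against the 5 p53-null thymi, over both mdm2 genotypes. No member and no feature of the array was called by limma (0% of 23332) or by a plain linear model without moderation (0), and 2.54% of features had an unadjusted p under 0.05. Small differences in 1 direction were frequent among the members: 18 of 20 cytosolic and 61 of 68 mitochondrial genes had a value above 0 in mutant p53, beside 49% of all features. The median differences were 0.09 in both classes and -0.0027 over all features. Without replicate 1 of the p53-null mdm2-null group, the sample in which the members were lowest, 12 cytosolic and 44 mitochondrial genes were above 0 and the medians were 0.04 and 0.02. Without replicate 2 of that group the counts were 18 and 64 and the medians 0.13 and 0.16.

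Rpl37 had the smallest p of the members in this comparison. This large-subunit protein is one of those reported to bind Mdm2. It read 6.69, 6.62 and 6.55 in p53-null and 7.45, 7.04 and 7.05 in mutant p53 thymi with wild-type mdm2, and 6.09 and 6.42 in p53-null and 6.59 and 6.84 in mutant p53 thymi without mdm2. Within each mdm2 genotype the mutant p53 samples were the higher ones without overlap, and the difference over both was 0.52 (SE 0.11, unadjusted p = 0.000964, adjusted p = 1). Mrpl48, a large-subunit gene, read 6.19, 6.34 and 6.87, then 6.75, 6.99 and 6.85 with wild-type mdm2, and 6.18 and 6.27, then 6.41 and 6.66 without. The p53 groups overlapped, with a difference of 0.36 (SE 0.13, adjusted p = 1). Its other, dimmer feature gave 0.019. Mrps18c, one of the small-subunit S18 paralogs, differed by 0.21 (SE 0.09, adjusted p = 1). Next by p came Mrpl16 (0.19) and Mrps9 (0.18) among the mitochondrial genes, and Rpl39l (0.36), Rpl4 (0.23) and Rps18 (0.30) among the cytosolic ones. Below 0 stood Rps3 (-0.07) and Rps24 (-0.08), and among the mitochondrial genes Mrps7 (-0.19), Mrpl33 (-0.08), Mrps2 (-0.05) and Mrpl54 (-0.03) came first by p. For 0 members were the p53 groups apart over both mdm2 genotypes, beside 0.223% of all features.

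**Figure D5:**
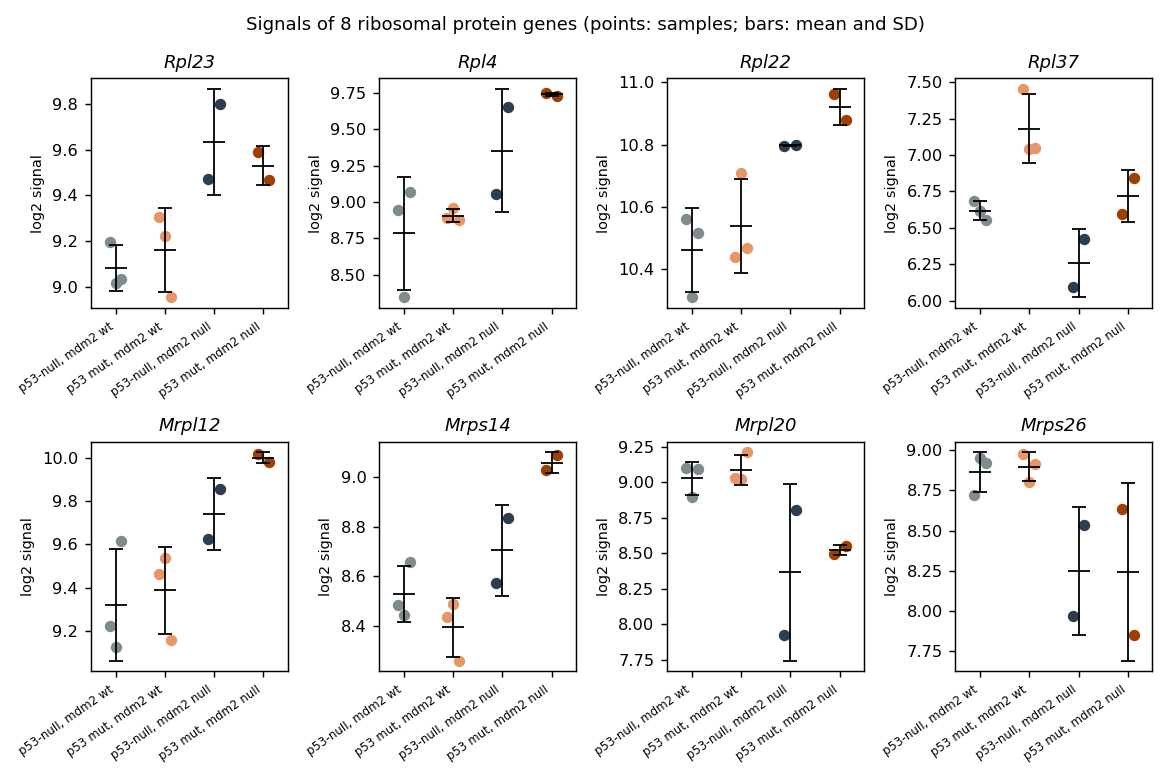
Log2 signal (y axis) of Rpl23, Rpl4, Rpl22, Rpl37, Mrpl12, Mrps14, Mrpl20 and Mrps26 in the 4 genotype groups (x axis), with a point per sample and bars for the mean and SD of 3 or 2 samples. Rpl37 reads 6.55 to 6.69 in p53-null and 7.04 to 7.45 in mutant p53 thymi with wild-type mdm2, while Mrpl20 and Mrps26 lie lower in the mdm2-null samples.

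Within each mdm2 genotype the p53 comparison again called no member and no feature. With wild-type mdm2, 14 of 20 cytosolic and 53 of 68 mitochondrial genes were above 0 in mutant p53, beside 50.7% of all features, and the median was 0.08 in each class. Rpl37 (0.56, SE 0.15) and Mrpl35 (0.24, SE 0.10) were the 2 members with an unadjusted p under 0.05, beside 2.96% of all features. Mrpl35 read 8.11, 8.08 and 8.17 in p53-null and 8.34, 8.42 and 8.33 in mutant p53 thymi, without overlap. Without replicate 2 of the mutant p53 mdm2-wild-type group the medians were 0.01 and 0.04, and without replicate 3 of it they were 0.12 and 0.15. Leaving out replicate 1, 2 or 3 of the p53-null mdm2-wild-type group gave mitochondrial medians of 0.04, 0.05 and 0.16. Without mdm2, the medians were 0.19 for cytosolic genes (0.10 for the 14 core subunits alone) and 0.10 for mitochondrial genes. They became -0.01 and -0.10 without replicate 1 of the p53-null mdm2-null group, and 0.37 and 0.28 without replicate 2, so 1 sample set their direction. Beside 3.87% of all features, 5 members had an unadjusted p under 0.05 there, all higher in mutant p53. They were Mrps18c (0.35), Rpl37 (0.46), Mrps14 (0.35), and the paralogs Rps4l (0.43) and Rpl39l (0.69).

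Whether the p53 difference itself depended on mdm2 was tested directly (its value without mdm2 minus its value with wild-type mdm2), and 0 of 23332 features were called, beside 997 at an unadjusted p under 0.05. Its medians over the members were 0.13 for the cytosolic and 0.01 for the mitochondrial class. The 14 cytosolic core subunits alone had a median of -0.06, with 6 above 0. Mrps14 had a difference of 0.49 (SE 0.19, unadjusted p = 0.0287, adjusted p = 0.995), beside 4.27% of all features with an unadjusted p under 0.05. Among the paralogs, Rpl3l, a striated-muscle copy of Rpl3, read 3.29 to 3.77 over the 10 samples. Rpl39l, a testis-enriched copy of Rpl39, read 3.57 to 4.75, and Rps4l read 7.14 to 8.03. The core subunit Rps15 read 3.96 to 5.13, and whether a low signal reflects low expression or the probes was not tested.

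Genes that make and use ribosomes were counted from lists of their known roles, beside 3.87% of all features called in either direction. In the mdm2 comparison, 0 of 11 RNA polymerase I transcription genes (median -0.10), 0 of 45 ribosome biogenesis genes (-0.02) and 0 of 22 mitoribosome assembly genes (0.09) were called. Of 26 cytosolic translation factors (-0.06), 3 were called higher: the cap-binding protein Eif4e (0.68, adjusted p = 0.0409), its inhibitor Eif4ebp2 (0.46, adjusted p = 0.0317) and the initiation factor 2 subunit Eif2s2 (0.81, adjusted p = 0.0455). Of 31 mitochondrial translation genes (0.02), 2 were called higher, the tRNA-modifying enzyme Trmu (0.55, adjusted p = 0.0333) and the prolyl-tRNA synthetase Pars2 (0.55, adjusted p = 0.0409). Of 15 Myc and growth control genes (-0.02), 2 were called lower, the Max partner Mxd1 (-0.44, adjusted p = 0.0288) and the mTORC2 subunit Rictor (-0.39, adjusted p = 0.0444). None of the 6 ribosomal proteins whose names fall outside the rule (Rplp0, Rpsa, Chchd1, Ptcd3, Gadd45gip1 and Oxa1l, the last an insertase that binds the mitoribosome) was called (median 0.12).

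In the p53 comparison, in which nothing was called, 10 of 11 polymerase I genes and 41 of 45 ribosome biogenesis genes had a value above 0 in mutant p53, with medians of 0.09 and 0.08, beside 49% of all features. The count was 22 of 26 for cytosolic translation factors (0.04), 17 of 31 for mitochondrial translation (0.02) and 14 of 22 for mitoribosome assembly (0.06). These comparisons use the same samples as those of the members, whose counts fell without replicate 1 of the p53-null mdm2-null group. Without that sample, left out here after seeing the data, the counts were 10 of 11 for polymerase I genes, 39 of 45 for ribosome biogenesis, 19 of 26 for cytosolic translation factors, 15 of 31 for mitochondrial translation and 13 of 22 for mitoribosome assembly, beside 48.6% of all features. The medians were 0.064, 0.062, 0.032, -0.014 and 0.014 in that order.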

How the data were processed

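Total RNA of frozen thymi was reduced in ribosomal RNA and labelled for whole-transcript arrays, per the labels' protocols. The authors deposited log2 signals for 23332 features and 10 samples. Partek 6.5 and mouse build mm8 are named in the submitters' processing notes, and the normalization is not given in the sources used here. The values were used as deposited. Of the features, 14996 were annotated to 1 gene symbol, 1019 to several and 7317 to none, by the platform annotation. All 88 members matched the RefSeq gene table.

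All features entered 1 linear model a comparison in limma (version 3.58.1, R 4.3.3), whose two-sided moderated tests were used, with Benjamini-Hochberg adjustment and a threshold of 0.05. Effects over both genotypes came from an additive model (7 residual degrees of freedom), the others from group means (6). The fit was tested on simulated data. Alternatives changed the scaling, the features or samples, the moderation and the block. The design text counts 10 thymi and names a mixed-model analysis of variance.

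Named genes were those called in a comparison, the 4 of each class with the smallest p in each direction for both overall effects, genes with a stated background, and the most and least variable. Mrpl35, the Y-linked genes and the shared features were named after their values were seen. The members, pathway and marker lists were chosen with earlier results of these data known.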

Additional observations from a re-analysis of the deposited data

How the results depend on the processing

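The number of members called for mdm2 over both p53 genotypes, 2 as reported, was 5 after quantile normalization, 6 without the dimmer 25% of features, 0 in a plain linear model and 0 with the replicate number as a block. It ran from 0 to 2 when single samples were left out, and the genes called then were not only Rpl23 and Rpl4. Mrpl12, Mrpl20, Mrps14, Mrps26 and Rpl4 were each called in 1 of those fits, and Rpl23 in 0. The additional calls after rescaling or without dim features concerned genes near the threshold: Mrpl12 (adjusted p = 0.0343 after quantile normalization, 0.0424 without dim features, 0.0415 after median centring), Mrpl20 (0.0451 and 0.0456 in the first 2), Rpl22 (0.0478 and 0.045) and Mrps26 (0.0488 without dim features). No alternative called a member in the other comparisons. Without the dimmer 25% of features the cytosolic median was 0.0093 for the dependence of the p53 difference on mdm2, 0.053 for mdm2 in mutant p53 and 0.17 for mdm2 in p53-null thymi. Leaving out single samples gave cytosolic medians of -0.031 to 0.26 for that dependence, 0.14 to 0.29 for mdm2 in mutant p53, -0.13 to 0.11 for mdm2 in p53-null and -0.011 to 0.37 for p53 without mdm2. The mitochondrial ranges were -0.21 to 0.20 for that dependence, -0.10 to 0.30 for mdm2 in p53-null and -0.10 to 0.28 for p53 without mdm2. The cause was not tested. Of 13 pairs of samples with the same replicate number, 1 had deviations correlated over 0.1 (r from -0.19 to 0.19). Deviations within a group of 2 mirror each other, so these values cannot show whether a replicate number marks a shared litter, batch or day. With the block the adjusted p in limma was 0.166 for Rpl23 and 0.122 for Rpl4. Rpl31 and Rps24, chosen after seeing the data, were also taken off the member list. Their features stayed in the fit, so this could not change the 2 calls. Groups of 2 and 3 arrays limit the precision of every value.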

Other observations

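Features shared between a ribosomal protein symbol and other symbols were not members, and their signal cannot be given to 1 gene. There were 36 of them, covering 27 cytosolic and 3 mitochondrial symbols. In the mdm2 comparison over both p53 genotypes their median log2 difference was 0.10, and 2 were called higher and 0 lower by limma (smallest adjusted p = 0.0299), beside 3.87% of all features. In the p53 comparison 0 were called and 0 had an unadjusted p under 0.05. Mrpl48 was the member with a second feature of its own symbol, which read 2.71 to 3.38 over the 10 samples while the feature used read 6.18 to 6.99.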
